A study of Mus musculus with 20 samples.

Results

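The genes of lipid synthesis that sterol regulatory element-binding proteins (SREBPs) control were followed in liver, in mice with the *IMP2-2* transgene (tg) and in wild-type mice (wt). The set holds 35 listed genes, of which 34 had a probe set annotated to them alone, out of 18194 such genes on the array. *Acat2*, the cytosolic thiolase of the sterol route, was not analysed here. Where several probe sets name a gene, the one with the highest mean over 20 arrays stands for it. The 34 genes fall into the SREBP machinery (5 genes), a fatty acid and triglyceride arm (11 genes) and a sterol arm (18 measured of 19 listed).

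The study hybridized liver RNA of 10 tg and 10 wt mice to Affymetrix Mouse Genome arrays, 1 array per liver by the labels. The tg mice carried p62/IMP2-2, a splice variant of the *Igf2* mRNA-binding protein IMP2, as a transgene that the series title calls liver-specific. The sources used here do not name the promoter that drives it. Both genotypes were on a C57Bl6J/DBA2 background, 5 weeks old and without treatment, and the livers were frozen after cervical dislocation. The methods give free access to food and a light and dark cycle, and the sources used here give no time of day for these livers. Values are log2 signals after the authors' RMA normalization, so that 1 unit is a 2-fold difference.

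SREBPs are made as precursors in the membrane of the endoplasmic reticulum. There SCAP, their escort, is held back by INSIG proteins while sterols are plentiful. When sterols run low, SCAP carries SREBP to the Golgi, proteases release its active part, and this part turns on genes in the nucleus. In liver, SREBP-1c, which insulin induces, favours fatty acid and triglyceride synthesis, and SREBP-2 favours cholesterol synthesis. ChREBP, the product of *Mlxipl*, responds to carbohydrate and acts beside SREBP-1c on fatty acid synthesis.

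Several arrays need naming before the results. The median SD of the log2 difference from other arrays was 0.427 to 0.465 for tg_1420_4, tg_1423_2-8_1 and tg_1423_2-8_4, against 0.280 to 0.389 for the other 17 arrays. This SD was 0.168 between wt_1407_2 and wt_1420_6 and 0.172 between wt_1407_5 and wt_1420_7, less than for the other wt pairs (0.228 to 0.401). Each of these pairs was counted as 1 profile, so that means and SDs of single genes rest on 8 wt profiles. The closest pair of all was wt_1386_4 with tg_1386_9, at 0.155, although their labels give different genotypes. Transgene expression was not analysed here, so it could not check the labels. Hepatocyte markers were high on every array, with a mean level of 13.2 to 13.4. *Eif2s3y*, a Y-linked gene, lay at 8.92 to 9.57 on all 20 arrays. The 3 tg arrays that stand apart and wt_1423_2-8_9 were nonetheless the 4 lowest for all 5 measured male-biased liver genes. *Elovl3*, a fatty acid elongase, was at 3.78, 4.19 and 8.83 on the 3 tg arrays and 3.59 on the wt array, against 9.92 to 12.53 on the other 16. *Cyp2b9*, a female-biased gene, was highest on the same 4, at 8.48 to 10.84 against 3.91 to 7.68. The other measured female-biased genes overlapped, *Cyp2b13* at 4.46 to 8.45 against 4.14 to 4.71 and *Cux2* at 6.50 to 6.77 against 6.41 to 6.80. Between genotypes limma called 3.95% of all genes in either direction, and 25.2% had an unadjusted p under 0.05. It called 0 of the 5 male-biased genes, which all had fold changes below 0 with a median of -0.47. Of 3 measured female-biased genes it called 0 (0 and 0 for these lists at an unadjusted p under 0.05). The part of this pattern in the results that follow was not tested.

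No gene of the set passed the test between genotypes. limma, with Benjamini-Hochberg adjustment over all probe sets, called 0 of 34 higher in tg livers, where 2.98% of all genes were called, and 0 of 34 lower, where 0.967% were called (3.95% in either direction). At an unadjusted p under 0.05 there were 3 higher genes (13% of all genes) and 3 lower (12.2%), or 6 of 34 in either direction (25.2%). This fit counts all 10 wt arrays as separate samples. Over the whole array, the probe sets higher in tg were 850 and the probe sets lower in tg 299, against 245 and 31 with the near-identical wt pairs averaged, and 391 to 1684 and 72 to 776 with 1 array left out. Of the 34 genes 0 were called with the pairs averaged. Of the 74 probe sets annotated to these genes, 0 were called. The median log2 fold change was -0.05 for the 34 genes, 0.10 for the machinery, -0.06 for the fatty acid and triglyceride arm, -0.05 for the sterol arm and -0.02 for all genes. The sample names carry 6 numbers that occur in both genotypes, and with this number as a replicate block in limma *Insig1* was called higher and *Mlxipl* lower. That fit called 5.39% of all genes higher and 1.88% lower, 7.27% in all. It too counts all 10 wt arrays as separate samples, and the arrays of each near-identical pair carry different numbers. With the number as a random term neither gene was called, the adjusted p being 0.0841 for *Insig1* and 0.0510 for *Mlxipl* with limma.

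**Figure D1:**
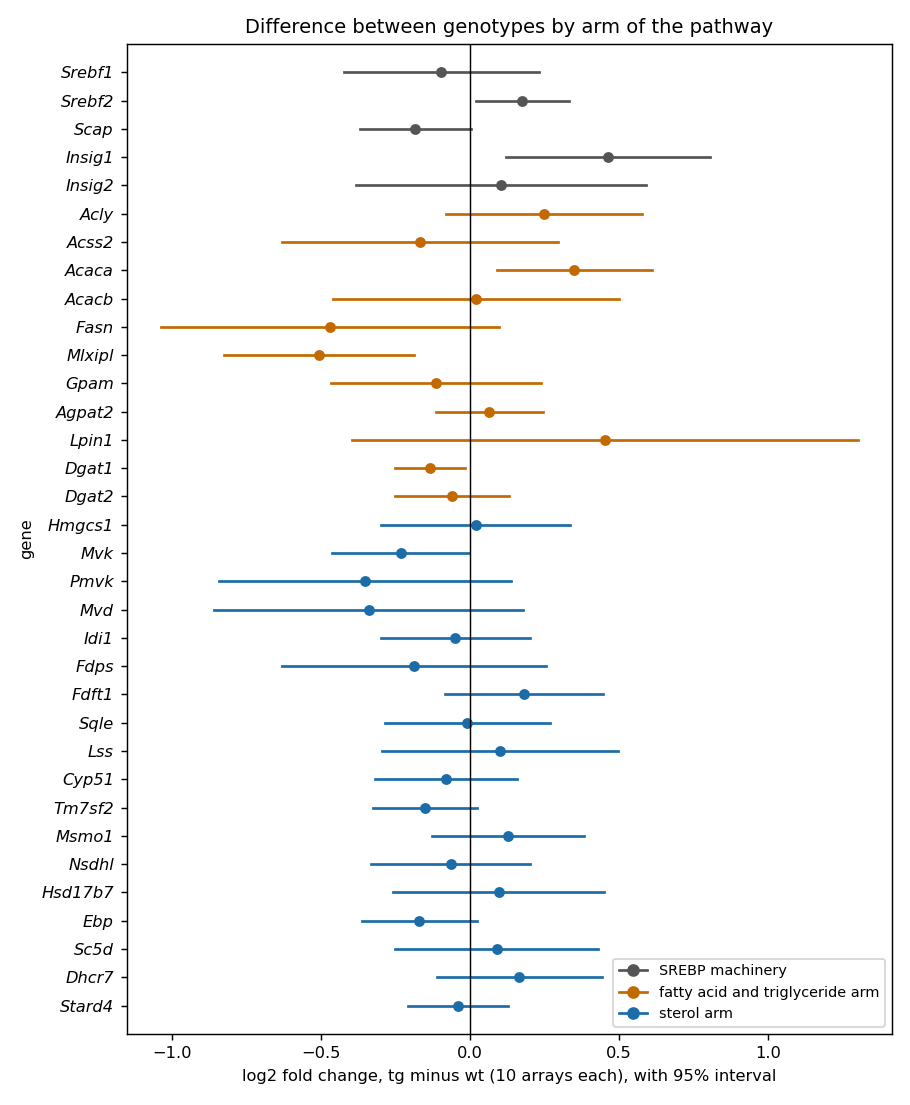
Log2 fold change (tg minus wt, 10 arrays each) of the 34 genes, with points for the limma estimate and lines for its 95% interval, coloured by arm. Estimates run from -0.51 for *Mlxipl* to 0.46 for *Insig1*, and the widest interval belongs to *Lpin1*.

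Promoter sequences, 250 bases before to 50 after each annotated start, came from RefSeq (GRCm38.p6), 39 promoters for 29 of the 35 listed genes, 28 of them measured. The 4 shown are those of both genes called with the replicate block, *Mlxipl* having a pair of starts, and of the gene that holds the sterol regulatory element TCACCCCAC. Capitals mark that element, with 1 base left free (TCACNCCAC), or the E-box CACGTG.
Insig1 chr5:28071162-28071461 (+ strand): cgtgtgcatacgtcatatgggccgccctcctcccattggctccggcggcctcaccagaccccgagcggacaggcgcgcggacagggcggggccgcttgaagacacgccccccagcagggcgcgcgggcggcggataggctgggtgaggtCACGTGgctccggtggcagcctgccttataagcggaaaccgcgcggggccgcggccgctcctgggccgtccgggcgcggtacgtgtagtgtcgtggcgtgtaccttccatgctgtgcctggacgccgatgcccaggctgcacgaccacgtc
Mlxipl chr5:135089640-135089939 (+ strand): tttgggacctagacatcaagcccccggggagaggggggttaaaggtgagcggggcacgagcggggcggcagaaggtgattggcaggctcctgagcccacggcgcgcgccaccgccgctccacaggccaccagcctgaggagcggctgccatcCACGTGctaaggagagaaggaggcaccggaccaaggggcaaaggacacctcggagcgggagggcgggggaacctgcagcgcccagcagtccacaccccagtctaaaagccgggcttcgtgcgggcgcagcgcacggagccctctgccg
Mlxipl chr5:135106641-135106940 (+ strand): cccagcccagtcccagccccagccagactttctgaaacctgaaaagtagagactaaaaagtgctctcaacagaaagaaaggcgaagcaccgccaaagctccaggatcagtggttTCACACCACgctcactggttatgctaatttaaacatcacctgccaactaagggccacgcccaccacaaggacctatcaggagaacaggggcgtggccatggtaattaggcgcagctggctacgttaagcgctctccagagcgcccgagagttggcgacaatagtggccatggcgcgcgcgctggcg
Hmgcs1 chr13:119690101-119690400 (+ strand): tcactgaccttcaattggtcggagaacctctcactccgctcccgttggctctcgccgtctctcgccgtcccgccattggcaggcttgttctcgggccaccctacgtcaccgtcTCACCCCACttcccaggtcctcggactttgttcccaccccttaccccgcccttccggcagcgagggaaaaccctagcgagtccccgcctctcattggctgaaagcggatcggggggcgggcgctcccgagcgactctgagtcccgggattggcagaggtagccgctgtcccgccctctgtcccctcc
In *Insig1* the E-box began at -101 from the start, and in *Mlxipl* the E-box of the upstream start began at -98 and the TCACACCAC of the downstream start at -136. In *Hmgcs1* the element began at -137. Searched on both strands, the exact element was in 1 of 39 promoters of the set, against 0.551% of 32851 promoters, and the form with a free base in 2 of 39, against 1.24%. The E-box was in 7 of 39 (17.9%, against 7.15%), 1 E-box of *Scap* being counted in both of its overlapping windows. CCAAT, the NF-Y box, was in 25 (64.1%, against 37.4%) and GGGCGG, the Sp1 box, in 28 (71.8%, against 35.7%). Both factors act beside SREBP at known targets. A match describes the letters alone, and the windows hold less than a whole promoter.

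In the machinery, *Insig1* stood out by size. INSIG1 retains SCAP and SREBP in the endoplasmic reticulum, and its gene is itself an SREBP target. Its log2 level was 10.43, 11.08 and 11.34 in wt livers (lowest, median, highest) and 10.83, 11.54 and 12.41 in tg livers. 6 of 10 tg livers lay above every wt liver, and the groups overlapped in the rest. The means were 10.96 ± 0.303 (SD, n = 8 profiles) in wt and 11.47 ± 0.482 (SD, n = 10) in tg livers. The log2 fold change over 20 arrays was 0.46 (SE 0.165, limma adjusted p = 0.119), and with the replicate block the adjusted p was 0.0455. Within the 6 label numbers tg was higher in 5, with differences of -0.12 to 0.89. Without the 3 tg arrays that stand apart, the log2 fold change was 0.26 (limma adjusted p = 0.53). It was 0.24 (limma adjusted p = 0.597) when wt_1423_2-8_9 was left out too, a setting chosen after seeing the data, and without tg_1386_9 and wt_1386_4 it was 0.51 (limma adjusted p = 0.0845).

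The other machinery genes differed less. *Srebf2*, which encodes SREBP-2, lay between 6.87 and 7.26 with a median of 7.11 in wt, and between 6.91 and 7.56 with a median of 7.21 in tg livers. Its log2 fold change was 0.17 (SE 0.0749, limma adjusted p = 0.190) and 0.06 without the 3 tg arrays that stand apart, which were its highest tg livers. *Srebf1*, which encodes SREBP-1a and SREBP-1c, covered 9.99 to 11.05 in wt and 9.92 to 11.09 in tg livers, nearly the same span. Its difference was -0.10 (SE 0.158, limma adjusted p = 0.767), with a 95% interval of -0.43 to 0.23. *Scap* had the lowest fold change of the machinery, -0.18 (SE 0.0898, limma adjusted p = 0.251), and 5 of 10 tg livers were below every wt liver. It was -0.05 without the 3 tg arrays and -0.04 without wt_1423_2-8_9 as well. *Insig2*, the INSIG gene that insulin lowers in liver, had 0.10 (SE 0.235, limma adjusted p = 0.840), and 2 wt livers sat far below the others, at 9.46 and 9.61.

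In the fatty acid and triglyceride arm, *Mlxipl* had the lowest fold change and the smallest p of the set. Its log2 level was 10.11, 10.62 and 11.01 in wt livers (lowest, median, highest) and 9.47, 10.33 and 10.73 in tg livers. 4 of 10 tg livers were below every wt liver, and 1 of 10 was above the wt median. Means were 10.61 ± 0.285 (SD, n = 8 profiles) in wt and 10.14 ± 0.445 (SD, n = 10) in tg livers. The log2 fold change was -0.51 (SE 0.153, limma adjusted p = 0.0737), and the adjusted p was 0.0396 with the replicate block. Within label numbers tg was lower in 5 of 6, with differences of -0.79 to 0.25. The value was -0.33 (limma adjusted p = 0.409) without the 3 tg arrays that stand apart, -0.33 again (limma adjusted p = 0.459) without wt_1423_2-8_9 as well, and -0.56 (limma adjusted p = 0.0604) without tg_1386_9 and wt_1386_4. With 1 array left out at a time, limma called *Mlxipl* in 2 of 20 fits, those without tg_1386_9 and without tg_14231_6.

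**Figure D2:**
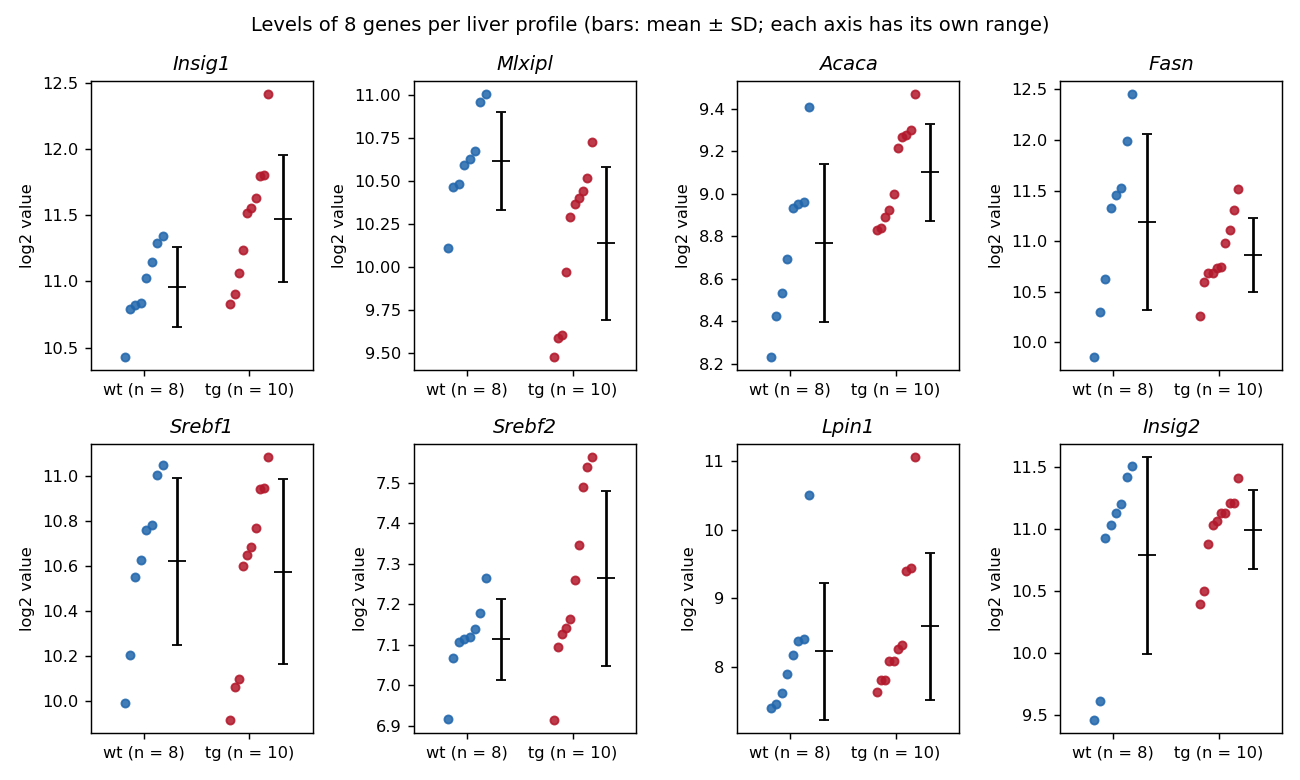
Log2 level of 8 genes in each liver profile (wt n = 8, tg n = 10), with the mean and SD as bars and a separate axis range for each gene. For *Insig1* and *Mlxipl* the groups are shifted but overlap, and for *Lpin1* 1 profile of each genotype lies far above the rest.

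The enzymes that make fatty acids did not share a direction between genotypes. *Acaca*, whose product acetyl-CoA carboxylase 1 makes malonyl-CoA in the cytosol, had medians of 8.79 in wt and 9.11 in tg livers. All 10 tg livers were above the wt median, and the log2 fold change was 0.35 (SE 0.125, limma adjusted p = 0.121). *Fasn*, the fatty acid synthase, went the other way, with medians of 11.40 in wt and 10.74 in tg livers. 1 of 10 tg livers was above the wt median, but wt livers ran from 9.85 to 12.48 and held all tg values, and the difference was -0.47 (SE 0.273, limma adjusted p = 0.342). *Acly*, which supplies acetyl-CoA from citrate, had 0.25 (SE 0.159), *Acss2*, which supplies it from acetate, -0.17 (SE 0.223), and *Acacb*, the mitochondrial acetyl-CoA carboxylase, 0.02 (SE 0.231). None of these 3 passed the test.

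On the triglyceride side, *Lpin1*, a phosphatidic acid phosphatase, had the widest range of the set, 3.71 log2 units over 20 arrays. It reached 11.07 in tg_14231_6 and 10.51 in wt_1423_2-8_9, while its medians were 8.03 in wt and 8.18 in tg livers. The log2 fold change was 0.45 (SE 0.409, limma adjusted p = 0.561), the highest of the arm. Without tg_14231_6 it was 0.18 and without wt_1423_2-8_9 it was 0.71. *Dgat1*, one of the enzymes for the last acylation step, was -0.13 (SE 0.0565, limma adjusted p = 0.185), and 6 of 10 tg livers were below every wt liver. *Dgat2*, the other, was -0.06 (SE 0.0920). Another *Dgat2* probe set, with a lower mean, was -0.21 (SE 0.0873, limma adjusted p = 0.172). With the replicate block that probe set was called lower (limma adjusted p = 0.0404). *Gpam*, the first acyltransferase of the route, was -0.12 (SE 0.169), and *Agpat2*, the next one, 0.07 (SE 0.0871).

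In the sterol arm 7 genes had fold changes above 0 and 11 below, and the range was narrow, from -0.35 to 0.18. The 4 lowest values belonged to early steps, up to farnesyl diphosphate. *Pmvk*, phosphomevalonate kinase, had the lowest fold change, -0.35 (SE 0.236, limma adjusted p = 0.417), with medians of 8.93 in wt and 8.63 in tg livers. *Mvd*, the decarboxylase after it, was -0.34 (SE 0.250), *Mvk*, mevalonate kinase, -0.23 (SE 0.111, limma adjusted p = 0.238), and *Fdps*, farnesyl diphosphate synthase, -0.19 (SE 0.214). *Hmgcs1*, HMG-CoA synthase, was 0.02 (SE 0.152) and *Idi1*, the isomerase, -0.05 (SE 0.121). 0 of 10 tg livers were above the wt median for *Mvk*, yet 1 of 10 was below every wt liver. *Pmvk* was -0.07 without the 3 tg arrays that stand apart.

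The later steps had fold changes of both signs, from -0.17 to 0.18. *Fdft1*, squalene synthase, had the highest fold change of the arm, 0.18 (SE 0.128, limma adjusted p = 0.444), with medians of 10.74 in wt and 10.88 in tg livers, and 0.03 without the 3 tg arrays. *Sqle*, squalene epoxidase, was -0.01 (SE 0.133, 95% interval -0.29 to 0.27) and *Lss*, lanosterol synthase, 0.10 (SE 0.191). Of the enzymes from lanosterol to cholesterol, *Dhcr7* (0.16), *Msmo1* (0.13), *Hsd17b7* (0.10) and *Sc5d* (0.09) had log2 fold changes above 0. *Ebp* (-0.17), *Tm7sf2* (-0.15), *Cyp51* (-0.08) and *Nsdhl* (-0.07) lay below. *Stard4*, a cytosolic sterol carrier, was -0.04 (SE 0.0807). None of the 18 passed with or without the replicate block.

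Seen per array rather than per genotype, the set varied widely. The level of an arm was taken as the mean, over its genes, of the log2 value minus the gene's mean over 20 arrays. Here all 10 wt arrays were counted, the near-identical ones separately. The fatty acid and triglyceride arm ran from -0.60 to 0.45 in wt (median -0.04) and from -0.28 to 0.28 in tg livers (median -0.03). The sterol arm ran from -0.35 to 0.50 in wt (median 0.00) and from -0.44 to 0.38 in tg livers (median -0.01). Genotype means of either arm differed by -0.03 and -0.05, far less than the SDs over 10 arrays per genotype. These SDs were 0.343 in wt and 0.202 in tg for the fatty acid and triglyceride arm and 0.296 and 0.226 for the sterol arm. The level of the fatty acid and triglyceride arm minus that of the sterol arm was -0.01 in wt and 0.01 in tg livers on average, a difference smaller than the spread between livers.

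**Figure D3:**
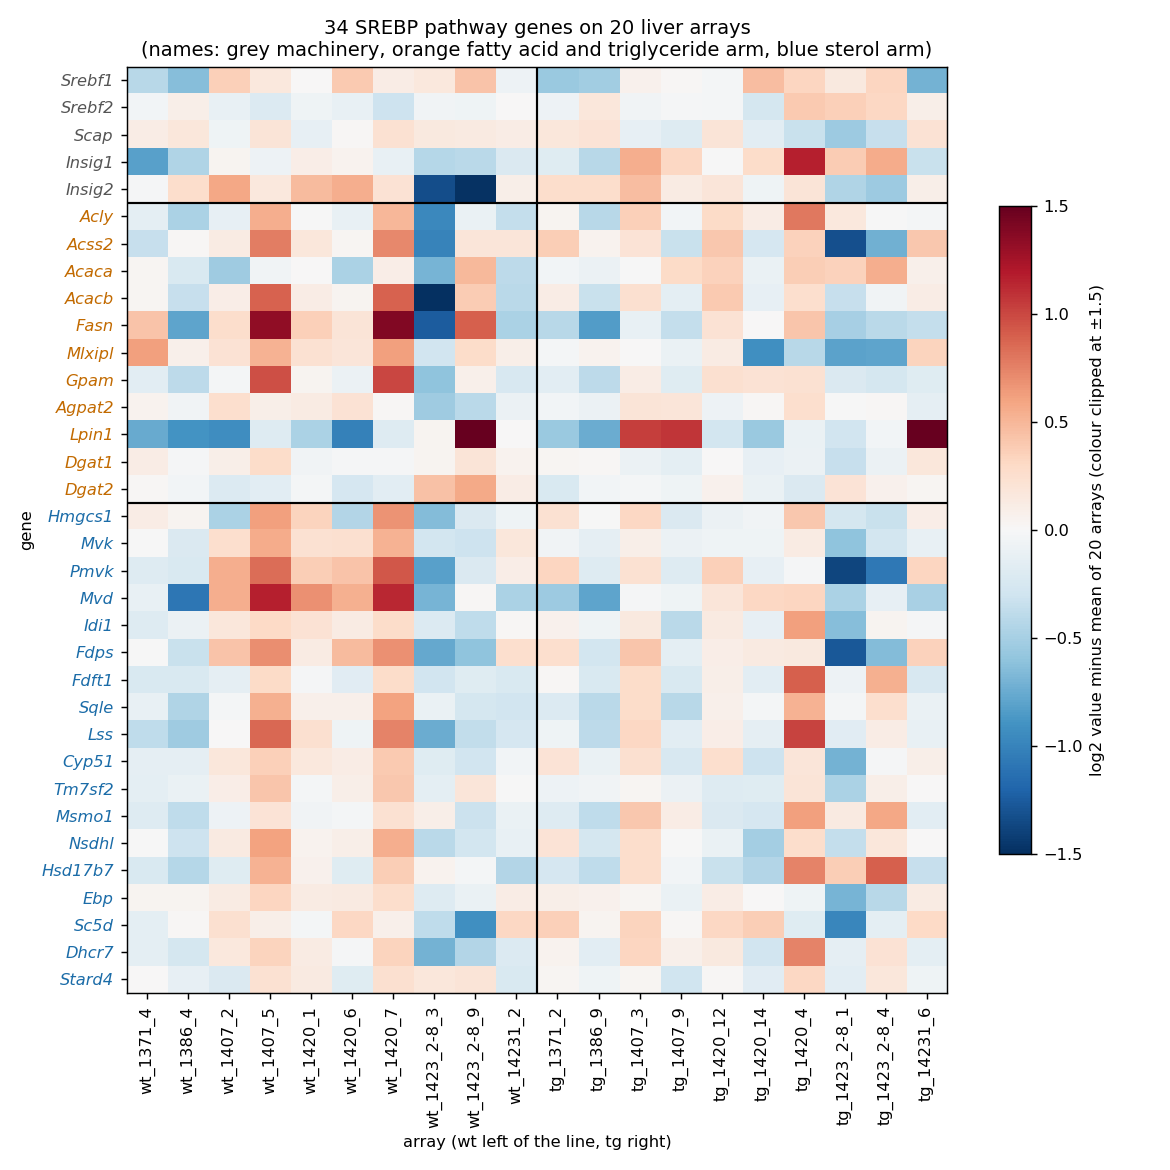
Log2 value minus the gene's mean over 20 arrays for the 34 genes (rows, by arm) on wt arrays (left) and tg arrays (right), with colours clipped at 1.5 units. wt_1407_5 and wt_1420_7, a near-identical pair, are high in both arms, and the 4 tg/wt_1423_2-8 arrays are low for *Insig2*, *Fdps*, *Mvk* and *Ebp*.

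The arms were on the same side of 0 on a modest majority of arrays. This held on 13 of 20 arrays, 7 of 10 in wt and 6 of 10 in tg, the near-identical wt arrays counted separately. On the other 7 the arms were on opposite sides. The profile of wt_1407_5 and wt_1420_7 was highest in both, at 0.45 and 0.44 for fatty acids and triglycerides and 0.50 and 0.48 for sterols. *Fasn* was at 12.42 and 12.48 there, and *Mvd* at 8.38 and 8.34. Among tg livers tg_1420_4 was highest in the sterol arm, at 0.38, with 0.17 in the fatty acid and triglyceride arm. wt_1423_2-8_3 was lowest for fatty acids and triglycerides, at -0.60, and tg_1423_2-8_1 lowest for sterols, at -0.44. The 3' minus 5' signal of the arrays ran from 0.405 to 0.955. It was 0.405 on wt_1407_5, 0.407 on wt_1420_7 and 0.953 on wt_1423_2-8_3, but 0.792 on tg_1420_4 and 0.735 on tg_1423_2-8_1. Its part in the arm levels was not tested.

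The arms lay more than 0.2 apart on 5 of 20 arrays. wt_1423_2-8_9 had the widest gap, 0.43 for fatty acids and triglycerides and -0.25 for sterols, with *Fasn* at 11.99 and *Lpin1* at 10.51. tg_14231_6 was next, at 0.28 and -0.03, and its *Lpin1* was at 11.07. These are the highest *Lpin1* values of their genotypes.

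**Figure D4:**
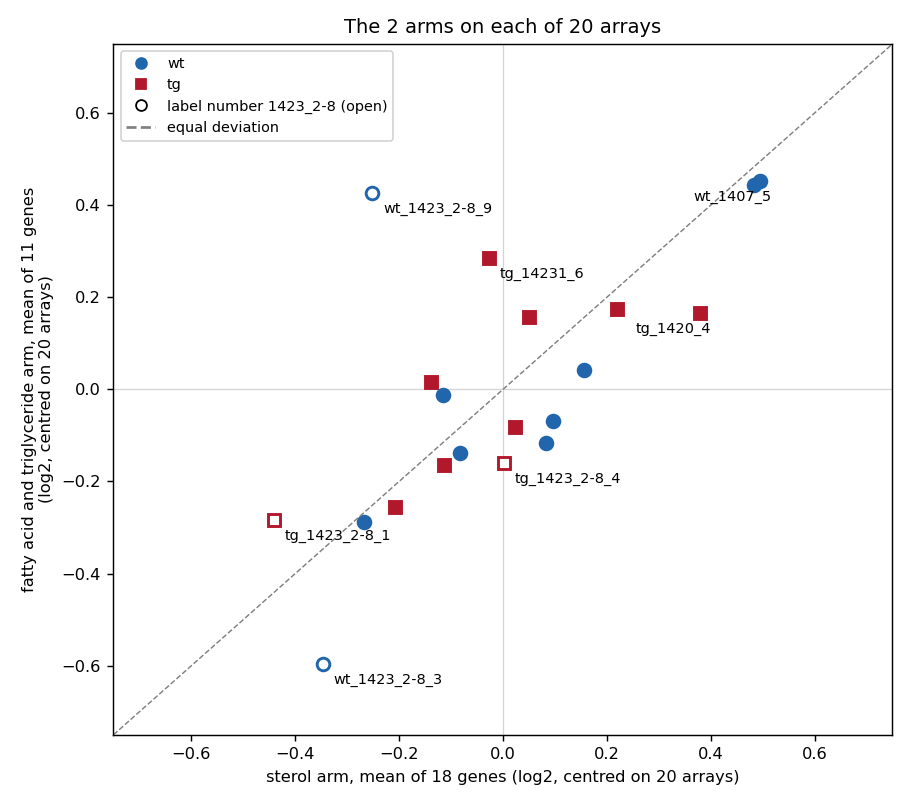
Mean deviation of the fatty acid and triglyceride arm (11 genes, y axis) against that of the sterol arm (18 genes, x axis) on each of 20 arrays, in log2 units, with wt as circles, tg as squares and tg/wt_1423_2-8 arrays open. wt and tg arrays are mixed along the line of equal deviation, and wt_1423_2-8_9 lies farthest from it.

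The 4 tg/wt_1423_2-8 arrays, 2 of each genotype, shared a pattern of their own. 4 of 34 genes had all 4 of these arrays below the other 16, where 0.83% of all genes did, and 0 of 34 had all 4 above, where 1.07% did. The 4 genes were *Insig2*, at 9.46 to 10.50 against 10.88 to 11.52, *Fdps*, at 9.81 to 10.47 against 10.74 to 11.77, *Mvk* and *Ebp*. The mean of *Insig2* was 1.19 log2 units lower on these arrays and that of *Fdps* 1.03 lower, while *Dgat2* was 0.40 higher. The clock genes, a list of 14, were on average 0.41 to 0.78 above their means on these 4 arrays and between -0.30 and -0.01 on all others. This average joins genes that moved in opposite directions. *Dbp* was at 9.36 to 11.07 on the 4 arrays against 4.73 to 6.06, but *Arntl* at 3.87 to 5.62 against 7.53 to 8.09. The sources used here do not say what the number in these names stands for, and its part in these values was not tested.

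Correlations across livers were taken over the 18 profiles after removal of the genotype means. Within the sterol arm the median r of 153 gene pairs was 0.56, and 142 pairs were above 0. It was 0.29 over the 55 pairs of the fatty acid and triglyceride arm and 0.36 over the 198 pairs across the arms, beside 0.0015 for all pairs of genes. Of all pairs of genes, 3.96% were as high as the sterol median, 18.6% as the fatty acid and triglyceride median and 13.4% as the median across the arms. These are descriptions, since all pairs come from the same profiles. Without the tg/wt_1423_2-8 arrays the medians were 0.63, 0.26 and 0.43 over 14 profiles.

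Of 6 relations chosen for their known links, 2 passed a two-sided permutation test within genotype, adjusted over the 6. *Insig1* and *Sqle*, both SREBP targets, had r = 0.65 (n = 18, permutation p = 0.00366, adjusted p = 0.0194) and rho = 0.69 (permutation p = 0.00311, adjusted p = 0.0187). *Fasn* and *Sqle*, one from each arm, had r = 0.61 (permutation p = 0.00648, adjusted p = 0.0194) and rho = 0.54 (permutation p = 0.0224, adjusted p = 0.0672). Without the 2 profiles farthest from the median of the first gene, r was 0.57 and 0.58, each with an adjusted permutation p of 0.0520. Correlations within label numbers used all 20 arrays, with the near-identical wt arrays, whose numbers differ, counted separately. Within label numbers *Insig1* with *Sqle* had r = 0.34 (adjusted permutation p = 0.330) and rho = 0.30 (adjusted permutation p = 0.430). There *Fasn* with *Sqle* had r = 0.49 (adjusted permutation p = 0.139) and rho = 0.60 (adjusted permutation p = 0.0171). Without the 3 tg arrays that stand apart r was 0.47 (adjusted permutation p = 0.166) and 0.63 (adjusted permutation p = 0.0513).

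For the other 4 relations, most of them a regulator's transcript with a target's, the test was not passed. *Srebf1* had r = 0.39 (permutation p = 0.108, adjusted p = 0.216) and rho = 0.41 (permutation p = 0.10, adjusted p = 0.177) with *Fasn*. It had r = 0.36 (permutation p = 0.149, adjusted p = 0.223) and rho = 0.39 (permutation p = 0.118, adjusted p = 0.177) with *Acly*. *Srebf2* with *Sqle* had r = 0.02 (permutation p = 0.954, adjusted p = 0.954) and rho = -0.11 (permutation p = 0.676, adjusted p = 0.676). *Insig1* with *Insig2* had r = 0.12 (permutation p = 0.585, adjusted p = 0.702) and rho = 0.23 (permutation p = 0.332, adjusted p = 0.398). Within label numbers, over all 20 arrays, this pair had r = 0.44 (adjusted permutation p = 0.165) and rho = 0.63 (adjusted permutation p = 0.0171). Without the 2 farthest profiles r was 0.28, 0.30, -0.31 and 0.14 for these 4 relations. Without the 3 tg arrays that stand apart, r for *Srebf2* with *Sqle* was -0.67 (n = 15, adjusted permutation p = 0.0499).

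**Figure D5:**
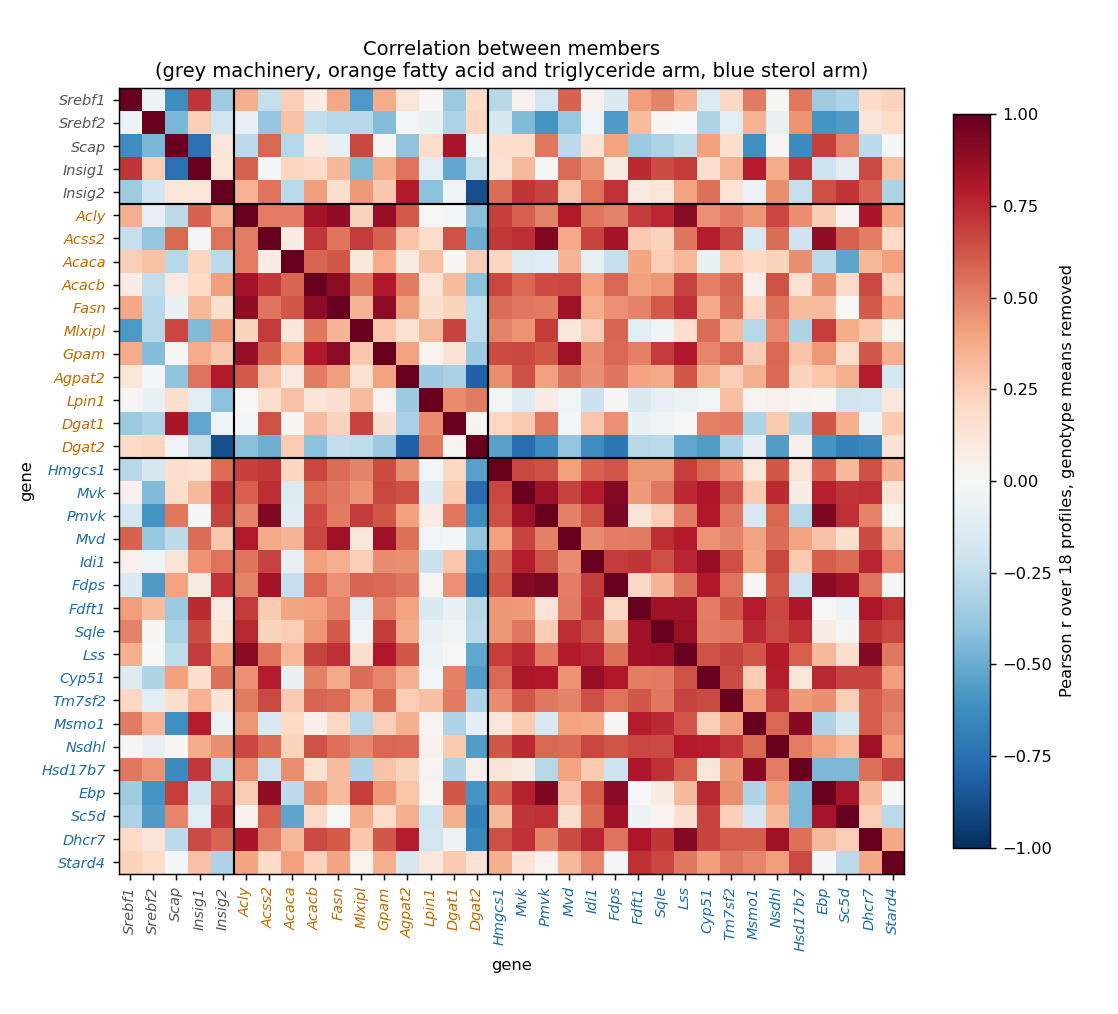
Pearson r between each pair of the 34 genes over 18 profiles, genotype means removed, ordered and coloured by arm. The sterol block is mostly red, *Dgat2* is mostly blue against it, and *Pmvk*, *Fdps*, *Ebp* and *Sc5d* form a group apart from *Msmo1* and *Hsd17b7*.

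Some pairs, picked after their values were seen, show how the genes grouped. *Acly*, *Fasn*, *Acacb* and *Gpam* went together, with r of 0.89 for *Fasn* with each of the other 3. *Lss* had 0.92 with *Dhcr7* and 0.86 with *Sqle*, and also 0.90 with *Acly* of the other arm. *Pmvk* had 0.94 with *Fdps* and with *Ebp*, and 0.92 with *Acss2*, the acetate enzyme. *Msmo1* had 0.91 with *Hsd17b7*, but *Pmvk* had -0.29 with *Hsd17b7*. Without the tg/wt_1423_2-8 arrays that last value was 0.36, and *Insig2* with *Dgat2* went from -0.88 to -0.35. *Scap* and *Insig1*, partners in SREBP retention, had -0.75, and -0.84 without those arrays.

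The mean of an arm was also set against every other gene. A sterol gene correlated with the mean of the rest of its arm at a median r of 0.72, a value that 0.369% of other genes reached, and *Lss* was highest at 0.90. For the fatty acid and triglyceride arm it was 0.53, which 2.49% reached, with *Acacb* at 0.83 highest and *Dgat2* at -0.19 lowest. Outside the set, *Myc* was the gene nearest to the sterol mean over the 18 profiles (r = 0.92), followed by *Pdzk1ip1* (r = 0.88). *Eefsec* was nearest to the fatty acid and triglyceride mean (r = 0.85), and *Scd1*, a desaturase and known SREBP-1c target, was among its 10 nearest (r = 0.82).

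Of 30 further genes of the pathway, 24 were measured. limma called 3 of the 24 higher, where 2.98% of all genes were called, and 1 lower, where 0.967% were called. The median log2 fold change was -0.07 (-0.02 for all genes). *Abca1*, a cholesterol exporter under LXR control, had medians of 11.27 in wt and 11.66 in tg livers, and 8 of 10 tg livers were above every wt liver. The log2 fold change was 0.39 with limma (SE 0.0776, adjusted p = 0.0122). *Mylip*, a ubiquitin ligase that LXR also induces, was 0.27 (SE 0.0598, limma adjusted p = 0.0222). *Mbtps2*, the site-2 protease that releases SREBPs in the Golgi, had medians of 7.06 in wt and 7.42 in tg livers and was 0.50 (SE 0.135, limma adjusted p = 0.0489), the largest rise of the list. *Agpat3*, a lysophospholipid acyltransferase, fell by 0.32 on the log2 scale (SE 0.0855, limma adjusted p = 0.0471). *Me1*, malic enzyme, had the lowest fold change, -0.65 (SE 0.241, limma adjusted p = 0.133), and was not called, and *Scd1* was -0.09 (SE 0.0840).

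Without the 3 tg arrays that stand apart, limma called 0 of the 24, while over the whole array the probe sets higher in tg went from 850 to 158 and the probe sets lower in tg from 299 to 8. There *Mbtps2* was 0.26 (adjusted p = 0.213), *Abca1* 0.27 (adjusted p = 0.0588), *Mylip* 0.27 (adjusted p = 0.107) and *Agpat3* -0.21 (adjusted p = 0.315). Without the 4 tg/wt_1423_2-8 arrays, limma again called none, and *Abca1* was 0.32 (adjusted p = 0.107). With wt_1423_2-8_9 and the 3 tg arrays left out it called none either, and *Abca1* was 0.26 (adjusted p = 0.0981). With the near-identical wt pairs averaged, *Abca1* and *Mylip* were called and *Mbtps2* (limma adjusted p = 0.103) and *Agpat3* (limma adjusted p = 0.0982) were not. All 4 were called without tg_1386_9 and wt_1386_4. With 1 array left out, *Abca1* and *Mylip* were called in 20 of 20 fits and *Mbtps2* and *Agpat3* in 5 of 20. The calls of *Mbtps2* and *Agpat3* were both lost without tg_1420_4, tg_1423_2-8_1 or tg_1423_2-8_4. Both were also lost on leaving out 1 of several other arrays, most wt arrays among them.

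Macrophage markers were higher in tg livers beside these genes. All 8 had fold changes above 0 and 4 were called higher, where 2.98% of all genes were called. The 4 were *Clec4f* 0.60 (limma adjusted p = 0.00924), *Cd68* 0.68 (limma adjusted p = 0.0144), *Marco* 0.46 and *Vsig4* 0.55. The mean level of the list ran from 7.07 to 7.73 in wt and from 7.44 to 8.11 in tg livers. In whole liver, more cells of a type and more RNA per cell cannot be told apart, and the part of macrophages in the values of *Abca1*, *Insig1* and *Mlxipl* was not tested. With the replicate block 6 of 8 macrophage markers were called higher, where 5.39% of all genes were called.

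The remaining lists held no call, where 3.95% of all genes were called in either direction. At an unadjusted p under 0.05 the share of all genes was 25.2%. Lists this short therefore say little about their cell types or states. limma called 0 of 10 measured hepatocyte markers (2 at an unadjusted p under 0.05), 0 of 7 lymphocyte (2), 0 of 8 pancreas (1) and 0 of 6 adipocyte markers (0). It called 0 of 11 feeding and fasting genes (2 at an unadjusted p under 0.05), with *Cyp4a14* at 1.38 and *Fgf21* at -0.67 as the highest and lowest fold changes. Of 14 clock genes 0 were called (0 at an unadjusted p under 0.05), with *Arntl* at 0.26 and *Dbp* at -0.68. With the replicate block limma called *Dbp* lower (adjusted p = 0.0208) and also 2 lymphocyte markers, *Ms4a1* and *Cd8a*, where 1.88% of all genes were called lower.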

How the data were processed

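The labels and the paper's methods give the array as Affymetrix Mouse Genome, and per the submitters' processing notes the authors normalized it by RMA, with no version named in these sources. The deposited table holds log2 values of 45101 probe sets on 20 arrays, used as they are. Array medians were 4.46 to 4.55, and precision is limited by how many mice there were. GEO's platform annotation gave 34958 probe sets 1 symbol, 932 several and 9211 none, and only the first were used.

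limma 3.58.1 in R 4.3.3 fitted genotype to all 20 arrays with default empirical Bayes, and Benjamini-Hochberg adjustment covered all probe sets at 0.05. SEs and fold changes come from this fit over 10 and 10 arrays, ranges and medians from the same arrays. Means ± SD of single genes come from 8 wt and 10 tg profiles, and means and SDs of arm levels from 10 and 10 arrays. Label numbers were checked as pairs: deviations of arrays sharing a number correlated across genotypes at 0.184 to 0.404 in 6 of 6. The own number gave the highest correlation for 5 of 6, and for 1371 the highest was with 1386. Blocked values are given where they change a call. The labels and the paper's methods give 10 tg mice and 10 controls. Whether the near-identical wt pairs came from separate mice was not tested. The limma p-values weigh the genotype difference against the spread between these samples.

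In Python 3.11.15, scipy 1.17.1, numpy 2.4.6 and matplotlib 3.10.9 were used for 100000 permutations of each relation, the motif search and the figures. Statistics were tested on simulated data. Members and lists were chosen with earlier results of these data known. Every member is named, with full statistics for an unadjusted p under 0.05 and for the highest and lowest fold change of each arm. Of other lists, genes past the threshold and the highest and lowest fold changes are eligible. Alternatives were the replicate block, fixed or random, renewed quantile normalization, median centring, a filter on dim probe sets, trend and robust settings, *Xist* signal as a covariate, other probe sets, averaged wt pairs and arrays left out. A fit without wt_1423_2-8_9 and the 3 tg arrays that stand apart was chosen after seeing the data.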

Additional observations from a re-analysis of the deposited data

Results flagged for a closer look

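In 6 of 68 groups of 8 wt or 10 tg profiles, 2 groups for each of 34 genes, the highest or lowest liver lay farther from its nearest neighbour than Dixon's 95% limit allows for the range of the group. Chance flags about 1 in 20 groups. *Lpin1* was at 11.07 in tg_14231_6, next to 9.45, and at 10.51 in wt_1423_2-8_9, next to 8.41. The wt profile of wt_1407_5 and wt_1420_7 was highest for *Gpam*, at 12.78 next to 11.87, and for *Fdft1*, at 11.20 next to 10.90. *Lss* was at 10.13 in tg_1420_4, next to 9.43. *Sc5d* was lowest in tg_1423_2-8_1, at 10.61 next to 11.41. What sets these livers apart was not tested.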

How the results depend on the processing

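The 34 fold changes were recomputed in 473 combinations of gene and other setting, of which 448 kept direction and call, 2 became calls and 23 changed sign. In 1 setting, probe sets whose names end in _a_at, _s_at or _x_at were left out. *Srebf1*, *Mlxipl* and *Pmvk* had no value there, since their only probe sets end in _a_at. With the replicate block as a fixed term, the 2 calls were *Insig1* and *Mlxipl*, so that 1 machinery gene was called higher and 1 gene of the fatty acid and triglyceride arm lower, and over the whole array the probe sets higher in tg went from 850 to 1634 and the probe sets lower in tg from 299 to 607. The block changed no other call among the probe sets that stand for the 34 genes. Another probe set of *Dgat2* was called lower with it (limma adjusted p = 0.0404). Probe sets called lower were 542 with the number as a random term, 476 after renewed quantile normalization, 156 after centring and 484 without tg_1386_9 and wt_1386_4. Higher and lower calls were 245 and 31 with the wt pairs averaged, 158 and 8 without the 3 tg arrays that stand apart, 114 and 7 without these and wt_1423_2-8_9 (chosen after seeing the data), and 69 and 5 without the tg/wt_1423_2-8 arrays, the last with fewer samples. Of the 24 further pathway genes, 1 was called higher after quantile normalization, and 0 were called higher or lower without the 3 tg arrays, without these and wt_1423_2-8_9, or without the tg/wt_1423_2-8 arrays. None (0) was called lower after centring, with averaged wt pairs or with *Xist* as a covariate. The same held without probe sets ending in _a_at, _s_at or _x_at.

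*Acacb* was -0.027 after quantile normalization, *Sqle* 0.014 after centring and 0.062 with averaged wt pairs, and *Nsdhl* 0.013 with the latter. Without the 3 tg arrays *Acss2* was 0.037, *Fdps* 0.025, *Lss* -0.013, *Msmo1* -0.037 and *Hsd17b7* -0.17. Without wt_1423_2-8_9 as well, *Acss2* was 0.047, *Lss* -0.049, *Msmo1* -0.066 and *Hsd17b7* -0.17. Without the tg/wt_1423_2-8 arrays *Insig2* and *Acacb* were -0.10, *Agpat2* -0.037, *Dgat2* 0.015, *Hmgcs1* -0.012, *Lss* -0.0056 and *Hsd17b7* -0.036. With the probe set of highest variance *Hmgcs1* was -0.44. That probe set was dim, with a mean of 4.17 over 20 arrays, below the median mean of all probe sets, 4.53. Without probe sets ending in _a_at, _s_at or _x_at, *Hmgcs1* was -0.0015 and *Msmo1* -0.17. The *Msmo1* probe set of that setting had a mean of 3.98, also below the median mean. The probe sets that stand for *Hmgcs1* and *Msmo1* elsewhere lay above it. The causes were not tested.

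With 1 array left out, 24 of 680 fold changes changed sign and 2 became calls. The ranges were -0.17 to 0.12 for *Acacb*, -0.054 to 0.094 for *Hmgcs1*, -0.12 to 0.018 for *Idi1*, -0.056 to 0.17 for *Insig2*, -0.0063 to 0.20 for *Lss*, -0.0086 to 0.20 for *Sc5d* and -0.069 to 0.057 for *Sqle*. Between 0 and 1 genes of the fatty acid and triglyceride arm and between 0 and 1 further pathway genes were called lower. Probe sets called ran from 391 to 1684 higher and from 72 to 776 lower, least without tg_1420_4 and most without tg_1386_9.

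For *Srebf2* with *Sqle* r was -0.10 over all 20 arrays, -0.31 without the 2 farthest profiles and -0.67 without the 3 tg arrays. *Insig1* with *Sqle* no longer passed within label numbers (r = 0.34), without the 2 farthest profiles (0.57) and without the 3 tg arrays (0.47). By r, *Fasn* with *Sqle* did not pass in these settings either (0.49, 0.58 and 0.63), though its rho passed within label numbers (0.60). On the gene strand alone CCAAT was in 12 promoters of the set.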
